A study of Homo sapiens with 12 samples.

Results

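The garlic compound diallyl trisulfide (DATS) raised TAGLN, which encodes the actin-binding protein transgelin, in MCF-10A cells, and raised TPM1, which encodes a tropomyosin that coats actin filaments, in SK-BR-3 cells. The TAGLN call was kept in 16 of 20 alternative fits. The TPM1 call lay close to the threshold and was kept in 7 of 20. TAGLN and TPM1 are the changes called, in a fit that does not pair the preparations, among 10 genes for actins and smooth muscle type actin-associated proteins. The 10 are known targets of serum response factor (SRF): ACTB, ACTG1, ACTA2, TAGLN, TAGLN2, CNN1, CNN2, MYL9, TPM1 and TPM2. With pairing by replicate number MYL9 and TPM1 were called as well in MCF-10A, where 10.7% of all genes were called higher. In SK-BR-3 ACTA2, MYL9 and TAGLN2 were then called as well, where 17.1% were. The genes were picked by name from the 58735 genes of the deposited expression table. The rule itself uses no measured value, but the names were chosen with earlier results of these data known. Each name matched 1 gene, and 9 of the 10 reached 1 FPKM (fragments per kilobase of exon, scaled to sequencing depth) in at least 3 libraries and were tested among 13194 genes. CNN1 did not.

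RNA was sequenced from MCF-10A, an established line of breast epithelial cells that do not form tumours, and from SK-BR-3, an established breast cancer line in which the ERBB2 gene is amplified. Each line received 20 µM DATS, or the solvent dimethyl sulfoxide (DMSO) at 0.07%, for 16 h, and was prepared independently 3 times, which gave 4 groups of 3 libraries. The controls are solvent controls, 1 dose and 1 time were studied, each state is represented by 1 established line, and cells were detached with trypsin before RNA was taken. Differences below are of log2(FPKM + 1), fitted with limma over all 12 libraries and given with their standard error (SE), and a gene is called where its p, adjusted by Benjamini-Hochberg over the 13194 genes, is under 0.05. In bulk RNA, fewer cells that express a gene and less RNA per cell cannot be told apart.

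SRF is a transcription factor that binds a short DNA element, the CArG box, in genes for actins and contractile proteins. Monomeric actin holds its cofactors MRTFA and MRTFB in the cytoplasm, and when actin assembles into filaments they enter the nucleus and act with SRF, so the level of free actin feeds back on the actin genes. A second class of SRF targets, the immediate early genes such as FOS and EGR1, is driven with ETS-family partners downstream of growth factor signals. ACTB and ACTG1 encode the cytoplasmic actins of every cell, while ACTA2, TAGLN, CNN1 and MYL9 are best known from smooth muscle, myoepithelial cells and activated fibroblasts.

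By GENCODE 29 on GRCh38 the genes lie apart on 9 chromosomes. ACTB is at chr7:5527147-5563784, ACTG1 at chr17:81509971-81523847, ACTA2 at chr10:88935074-88991339, TAGLN2 at chr1:159918107-159925732 and TPM2 at chr9:35681992-35690121, all on the minus strand. TAGLN is at chr11:117199321-117204782, MYL9 at chr20:36541484-36551447, TPM1 at chr15:63042632-63071915, and CNN1 and CNN2 at chr19:11538717-11550323 and chr19:1026581-1039068, all on the plus strand.

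The start regions of the genes are shown because SRF is known to reach its targets through the CArG box. The RefSeq table of starts (GRCh38.p14) held 11 starts for 7 of the 10 genes, namely ACTG1, ACTA2, TAGLN2, CNN1, CNN2, TPM1 and TPM2. In the 250 bases before each start, both strands were searched for the CArG box, a 10-base element that reads alike on either strand, and for the same element with 1 base off. In the sequences of ACTG1 (chr17:81512800-81513049, minus strand), CNN2 (chr19:1026358-1026607, plus strand), the downstream start of ACTA2 (chr10:88952774-88953023, minus strand) and TPM1 (chr15:63048239-63048488, plus strand), printed 5′ to 3′, capitals mark a CArG box or a box with 1 base off.
ACTG1: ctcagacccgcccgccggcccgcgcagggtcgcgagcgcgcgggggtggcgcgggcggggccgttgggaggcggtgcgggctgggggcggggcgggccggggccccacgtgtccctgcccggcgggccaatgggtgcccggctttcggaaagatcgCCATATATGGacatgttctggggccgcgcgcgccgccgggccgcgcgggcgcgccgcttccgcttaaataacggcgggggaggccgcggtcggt
CNN2: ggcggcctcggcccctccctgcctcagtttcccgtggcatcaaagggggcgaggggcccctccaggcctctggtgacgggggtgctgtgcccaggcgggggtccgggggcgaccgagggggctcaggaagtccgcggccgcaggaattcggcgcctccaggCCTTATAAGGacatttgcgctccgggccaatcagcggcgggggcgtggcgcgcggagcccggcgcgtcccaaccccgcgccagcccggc
ACTA2: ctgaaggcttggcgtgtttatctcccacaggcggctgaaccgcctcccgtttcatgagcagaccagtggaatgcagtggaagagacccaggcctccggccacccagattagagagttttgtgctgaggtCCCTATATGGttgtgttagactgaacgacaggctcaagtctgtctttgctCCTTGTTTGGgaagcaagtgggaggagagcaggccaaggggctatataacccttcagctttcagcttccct
TPM1: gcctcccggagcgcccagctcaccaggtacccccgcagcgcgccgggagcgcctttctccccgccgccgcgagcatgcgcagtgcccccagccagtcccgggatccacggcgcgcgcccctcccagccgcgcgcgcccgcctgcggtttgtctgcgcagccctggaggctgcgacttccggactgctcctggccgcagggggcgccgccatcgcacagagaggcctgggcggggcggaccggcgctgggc
ACTG1 held a complete box whose first base lies 94 bases before the start, and CNN2 held a complete box 89 bases before it. The ACTA2 window held no complete box but had a pair with 1 base off, 121 and 71 bases before the start. The windows of TAGLN2, CNN1, TPM1 and TPM2 and the upstream start of ACTA2 held neither form. Over all 34943 start windows in the table, 407 (1.16%) held a complete box and 5867 (16.8%) held a complete box or a box with 1 base off, so the looser form is common. A match describes these letters only.

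The actin genes are close copies, and the first 60 coding bases of ACTB (chr7:5529598-5529657, minus strand, GRCh38) and ACTG1 (chr17:81512295-81512354, minus strand) show how they can still be told apart by sequence; capitals mark the 10 bases that differ between them.
ACTB: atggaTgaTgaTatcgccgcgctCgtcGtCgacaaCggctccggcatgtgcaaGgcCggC
ACTG1: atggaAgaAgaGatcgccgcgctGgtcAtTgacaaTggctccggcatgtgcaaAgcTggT
The full coding sequences of ACTB and ACTG1 were identical at 91.3% of 1125 aligned bases, and ACTA2 matched them at 82.2% and 82.3%. Identity was 70.9% between TAGLN and TAGLN2, 79.0% between TPM1 and TPM2, and 68.3% between CNN1 and CNN2. Of the 50-base pieces of the ACTB transcripts, 4.84% also occurred in transcripts of another gene, and the share was 5.84% for TAGLN2, 2.30% for ACTG1 and 0.0% for TAGLN, MYL9 and TPM2. Reads counted to annotated pseudogenes stayed at or under 0.0393% of the parent gene's reads for ACTB, ACTG1 and TAGLN2, and reached 0.505% for CNN2.

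Libraries held 15295046 to 18407213 reads in genes, and the 10 genes together took 1.36% to 2.07% of the reads in MCF-10A and 1.11% to 1.51% in SK-BR-3. With DMSO, basal markers of MCF-10A were called lower in SK-BR-3 for 6 of 6 genes, beside 35.5% of all genes. Luminal markers with ERBB2 were called higher for 6 of 6, beside 36.6%. With DATS 4 of the 6 luminal markers rose in MCF-10A, where 4.17% of all genes rose, and their summed level went from 115 to 134 FPKM up to 191 to 223 FPKM. In SK-BR-3 3 of the 6 basal markers rose, where 11.3% of all genes rose, with sums of 18.2 to 30.4 FPKM and 48.5 to 82.2 FPKM. KRT5, a basal keratin, was called lower in MCF-10A at -0.50 ± 0.12 (adjusted p = 0.0383 by limma, not called by edgeR or DESeq2, nor in 7 of 12 fits with a library left out), and ERBB2 was called lower in SK-BR-3 at -0.34 ± 0.0659 (adjusted p = 0.00673), beside 2.11% and 6.87% of all genes; both were named after their values were seen. KRT5 was the 1 basal marker of 6 called in MCF-10A, where the median difference of the 6 was -0.03. ERBB2 was the 1 luminal marker of 6 called in SK-BR-3, where the median was 0.06. The part of these markers in the results below was not tested. Without MCF-10A DATS library 2 the count of luminal markers that rose in MCF-10A was 0. Without SK-BR-3 DATS library 1 the count of basal markers that rose in SK-BR-3 was 1. Among all genes tested, 550 rose and 279 fell with DATS in MCF-10A, and 1485 rose and 906 fell in SK-BR-3. Scaling to plain read totals turned this split to 436 against 463 in MCF-10A and 873 against 1329 in SK-BR-3, quantile normalization gave 634 against 615 in MCF-10A, and edgeR gave 1145 against 1111 in SK-BR-3. Library 3 of MCF-10A in DMSO stood apart for the genes described here: it was the highest of its 3 libraries for 10 of 10, where 44.6% of all genes tested had their highest value there. The MCF-10A calls are given with and without it.

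Levels differed over a wide range between the genes. ACTB, which encodes beta-actin, measured 2217, 2299 and 3200 FPKM in MCF-10A with DMSO and 2049, 2454 and 2197 FPKM in SK-BR-3 with DMSO. It ranked 9 among all genes by mean FPKM in the former group and 13 in the latter. ACTG1, gamma-actin, followed with 1117, 1163 and 1712 FPKM in MCF-10A and 611, 697 and 672 FPKM in SK-BR-3. TAGLN2, a transgelin found in many non-muscle cells, came next with means of 470 ± 130 (SD, n = 3) and 631 ± 35.8 FPKM.

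In MCF-10A with DMSO the order then ran CNN2, TPM2, TAGLN, MYL9, TPM1, ACTA2 and CNN1, with mean levels of 72.5, 65.2, 14.7, 8.67, 8.51, 0.980 and 0.00646 FPKM. The libraries of CNN2 and TPM2, of TAGLN and MYL9, and of MYL9 and TPM1 overlapped, and the other neighbours lay apart. In SK-BR-3 with DMSO the order after TAGLN2 was MYL9, CNN2, TPM1, TPM2, ACTA2, TAGLN and CNN1, with means of 51.3, 35.4, 33.6, 8.66, 5.005, 4.24 and 0.0219 FPKM. There the libraries of ACTG1 and TAGLN2, of CNN2 and TPM1, and of ACTA2 and TAGLN overlapped. FPKM divides TPM1 by a merged exon length of 12876 bases, which holds all of its alternative exons and understates its level per transcript.

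CNN1, which encodes the smooth muscle calponin, was at or near 0. Its summed reads over 3 libraries were 1 in MCF-10A with DMSO, 0 with DATS, 3 in SK-BR-3 with DMSO and 7 with DATS. A count of 0 allows up to 3 reads over the group, by counting error alone, so no fold is given. CNN1 was not tested, and at this depth no difference in it is given.

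**Figure D1:**
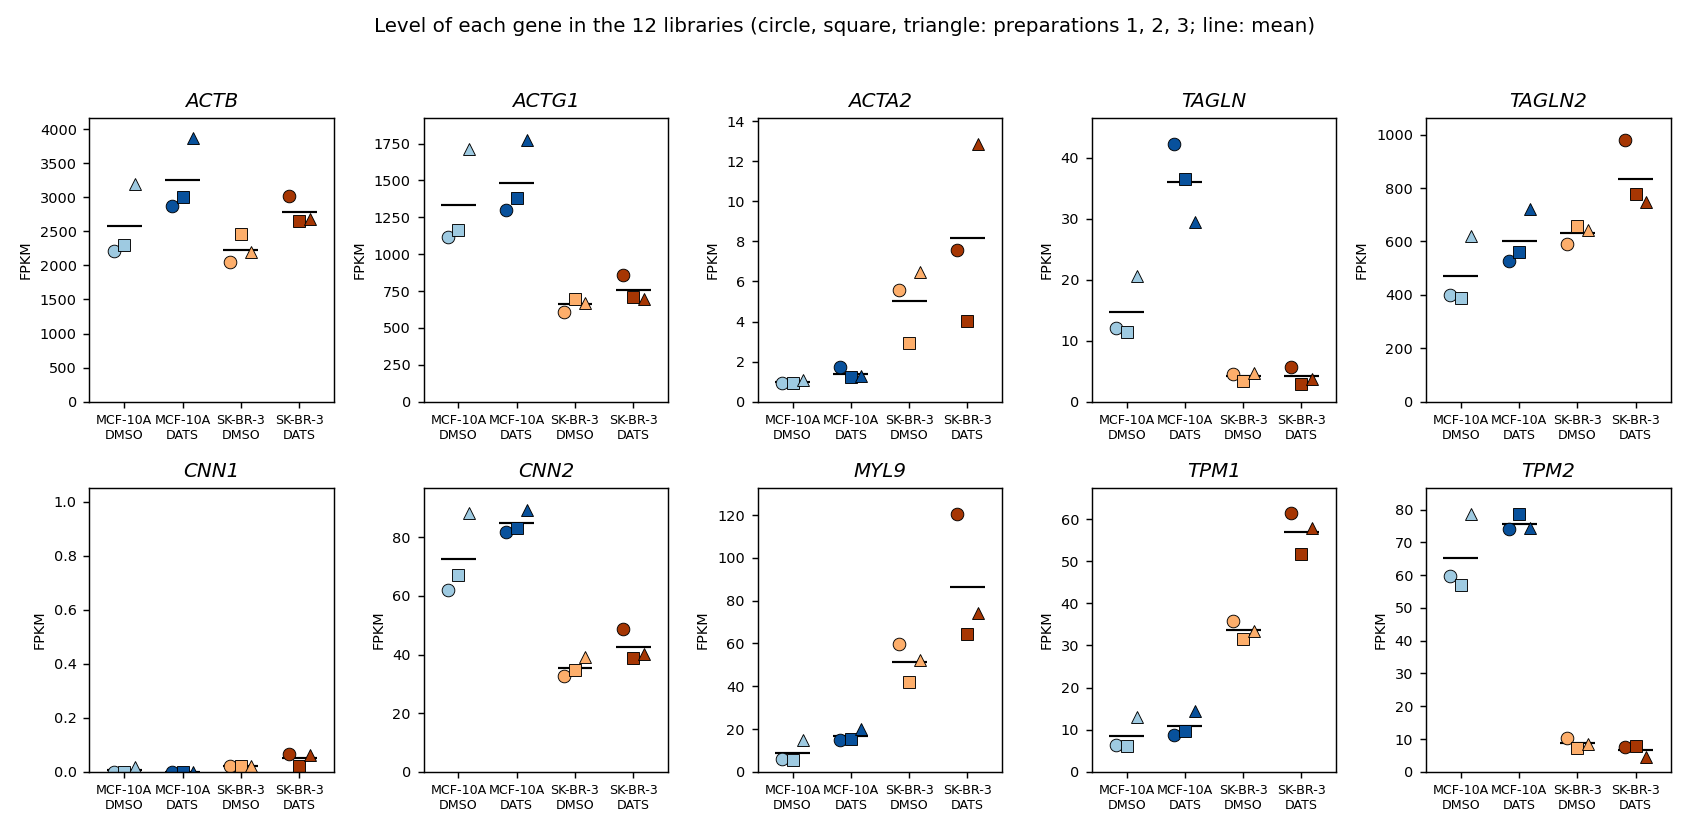
FPKM (linear axis from 0, scaled for each gene) of the 10 genes in the 12 libraries, grouped by line and treatment, with 1 symbol per preparation and a line at the group mean of 3. TAGLN sits at 29.5 to 42.3 FPKM in MCF-10A with DATS and at 11.4 to 20.5 FPKM with DMSO, TPM1 and MYL9 sit higher in SK-BR-3, and CNN1 stays under 0.1 FPKM.

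In MCF-10A cells DATS raised TAGLN. It measured 12.1, 11.4 and 20.5 FPKM with DMSO and 42.3, 36.5 and 29.5 FPKM with DATS, from 833 to 2766 reads a library. The groups did not overlap, and library 3 was the highest of the DMSO group and the lowest of the DATS group. The difference was 1.27 ± 0.24 (SE), a 2.42-fold change on that scale, with adjusted p = 0.0148 by limma, and it was higher in 3 of 3 preparations, by 1.73, 1.59 and 0.50.

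TAGLN was the 1 gene called higher of the 9 tested, where 4.17% of all genes tested were called higher and 2.11% lower (6.28% in either direction). The groups did not overlap for 3 of the 9, TAGLN, MYL9 and ACTA2, beside 17.3% of all genes, and 8 of the 9 were higher in every preparation, beside 32.1%. Without DMSO library 3 the difference in TAGLN was 1.53 with adjusted p = 0.00255. Without DMSO library 1 or 2, or DATS library 1 or 2, the call was lost, with adjusted p of 0.0798, 0.0774, 0.0591 and 0.0641 by limma. Over all alternatives the adjusted p of TAGLN ran from 2.83e-05 to 0.0798.

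MYL9, the regulatory light chain of myosin in smooth muscle and non-muscle cells, measured 5.81, 5.44 and 14.8 FPKM with DMSO and 14.9, 15.1 and 20.1 FPKM with DATS. The groups lay apart only narrowly, at 14.8 against 14.9 FPKM. The difference of 0.99 ± 0.32 was not called, with adjusted p = 0.0891 by limma. TPM1 measured 6.25, 6.23 and 13.04 FPKM with DMSO and 8.67, 9.59 and 14.4 FPKM with DATS, groups that overlapped, and its difference of 0.36 ± 0.24 had adjusted p = 0.385.

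With the replicate number as a block in the limma fit, MYL9 and TPM1 were called as well as TAGLN, with adjusted p of 0.0153, 0.0285 and 0.0151, where 10.7% of all genes were called higher. Without DMSO library 3 and with no block, 6 of the 9 were called, where 9.87% of all genes were called higher. These were TAGLN, MYL9 (1.41, adjusted p = 0.00499), TPM1 (0.68, 0.0222), TAGLN2 (0.60, 0.0266), ACTB (0.51, 0.0390) and CNN2 (0.39, 0.0416), all by limma.

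The cytoplasmic actins of MCF-10A were not called. ACTB measured 2871, 3000 and 3872 FPKM with DATS, and the groups overlapped, since DMSO library 3 lay above DATS libraries 1 and 2. Its difference of 0.34 ± 0.16 had adjusted p = 0.224, with a 95% interval from -0.01 to 0.70. ACTG1 measured 1299, 1379 and 1772 FPKM with DATS, again overlapping, a difference of 0.17 ± 0.17 with adjusted p = 0.606.

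TAGLN2, at 401, 388 and 620 FPKM with DMSO and 526, 562 and 722 FPKM with DATS, differed by 0.38 ± 0.18 (adjusted p = 0.237). CNN2, the calponin of non-muscle cells, went from 72.5 ± 13.9 to 84.7 ± 3.98 FPKM, and TPM2, a second tropomyosin, from 65.2 ± 11.8 to 75.7 ± 2.502 FPKM (SD, n = 3), and neither was called. ACTA2, smooth muscle alpha-actin, stayed low at 0.934, 0.936 and 1.07 FPKM with DMSO and 1.73, 1.21 and 1.26 FPKM with DATS, from 49 to 86 reads a library, with a difference of 0.27 ± 0.31.

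The fitted difference was above 0 for 9 of the 9 genes tested, as it was for 55.1% of all genes. Their median was 0.34 beside 0.02 for all genes, and by preparation it was 0.40, 0.45 and 0.13 beside 0.02, 0.02 and 0.03. With quantile normalization the differences were 0.12 for ACTB, 0.07 for ACTG1, 0.11 for CNN2, 0.12 for TPM2 and 0.25 for TAGLN2. Those of TAGLN, MYL9, TPM1 and ACTA2 were then 1.30, 1.02, 0.36 and 0.26. Preparation 3, whose DMSO library was high for these genes, gave the lowest difference for 9 of the 9. The share of reads from ribosomal RNA genes was 0.249%, 0.243% and 0.257% with DMSO and 0.365%, 0.386% and 0.261% with DATS, and differed least in preparation 3. Its part in the result was not tested.

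In SK-BR-3 cells DATS raised TPM1. It measured 35.9, 31.6 and 33.4 FPKM with DMSO and 61.4, 51.7 and 58.0 FPKM with DATS, from 6677 to 12562 reads a library. The groups did not overlap, with the lowest DATS library above the highest DMSO library. The difference was 0.74 ± 0.24, a 1.67-fold change, and preparations 1 to 3 gave 0.76, 0.69 and 0.78.

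TPM1 was the 1 gene called of the 9 tested, where 11.3% of all genes tested were called higher and 6.87% lower (18.1% in either direction). The count is thus near the background, and the call was kept in 7 of 20 alternatives. The groups did not overlap for 4 of the 9, TPM1, MYL9, TAGLN2 and ACTB, beside 21.1% of all genes, and 7 of the 9 were higher in every preparation, beside 34.1%. Its adjusted p by limma was 0.0495, just inside the threshold. It was 0.0581 by edgeR and 0.0146 by DESeq2 (13.1% of all genes called higher) on recovered reads, 0.00949 with the SK-BR-3 libraries fitted alone, and 0.00171 with the replicate block. Leaving out any of the 6 SK-BR-3 libraries, or MCF-10A DATS library 1 or 2, took it to between 0.0557 and 0.129, while the difference stayed between 0.69 and 0.81. Without MCF-10A DMSO library 3 TPM1 had adjusted p = 0.00818 and MYL9 was called as well (0.0425), where 12.8% of all genes were called higher. Without SK-BR-3 DATS library 2 ACTA2 was called (0.91, adjusted p = 0.0384) and TPM1 was not.

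MYL9 measured 59.6, 42.1 and 52.2 FPKM with DMSO and 120, 64.6 and 74.2 FPKM with DATS. The groups did not overlap, and DATS library 1 stood highest. The difference of 0.70 ± 0.32 had adjusted p = 0.153, and without that library it was 0.44. TAGLN2 measured 590, 659 and 643 FPKM with DMSO and 982, 778 and 746 FPKM with DATS, again apart and with library 1 highest, a difference of 0.40 ± 0.18 with adjusted p = 0.160.

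ACTB measured 3019, 2650 and 2679 FPKM with DATS, above its 3 DMSO libraries, with a difference of 0.32 ± 0.16 and adjusted p = 0.196. ACTG1 measured 862, 709 and 693 FPKM with DATS, where library 3 overlapped with the DMSO group, and differed by 0.19 ± 0.17 (adjusted p = 0.495). CNN2 went from 35.4 ± 3.31 to 42.5 ± 5.34 FPKM (SD, n = 3) and was not called. DATS library 1 was the highest of its group for 8 of the 10 genes, among them CNN1 with 3 reads there. The share over all genes was not computed, so this count is not shown to be particular to these genes.

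ACTA2 measured 5.59, 2.93 and 6.49 FPKM with DMSO and 7.54, 4.03 and 12.9 FPKM with DATS. Preparation 2 was lowest in both arms. Within preparations it was higher with DATS in 3 of 3, by 0.37, 0.36 and 0.89, and the unpaired difference of 0.54 ± 0.31 had adjusted p = 0.260. With the replicate block 4 of the 9 genes were called higher by limma, where 17.1% of all genes were: TPM1, ACTA2 (adjusted p = 0.0190), MYL9 (0.0254) and TAGLN2 (0.0447).

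TAGLN and TPM2 had fitted differences below 0 in SK-BR-3. TAGLN measured 4.57, 3.37 and 4.77 FPKM with DMSO and 5.72, 2.88 and 3.80 FPKM with DATS, a difference of -0.06 ± 0.24 with a 95% interval from -0.58 to 0.47. TPM2 measured 10.2, 7.25 and 8.49 FPKM with DMSO and 7.51, 7.83 and 4.48 FPKM with DATS, a difference of -0.36 ± 0.18 with adjusted p = 0.189. Over the 9 genes 7 were above 0, beside 54.8% of all genes, and the median was 0.32 beside 0.03, with preparation medians of 0.56, 0.16 and 0.22. The share of reads from ribosomal RNA genes was 0.344%, 0.346% and 0.410% with DMSO and 0.427%, 0.557% and 0.454% with DATS, groups that did not overlap, and its part in the result was not tested.

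**Figure D2:**
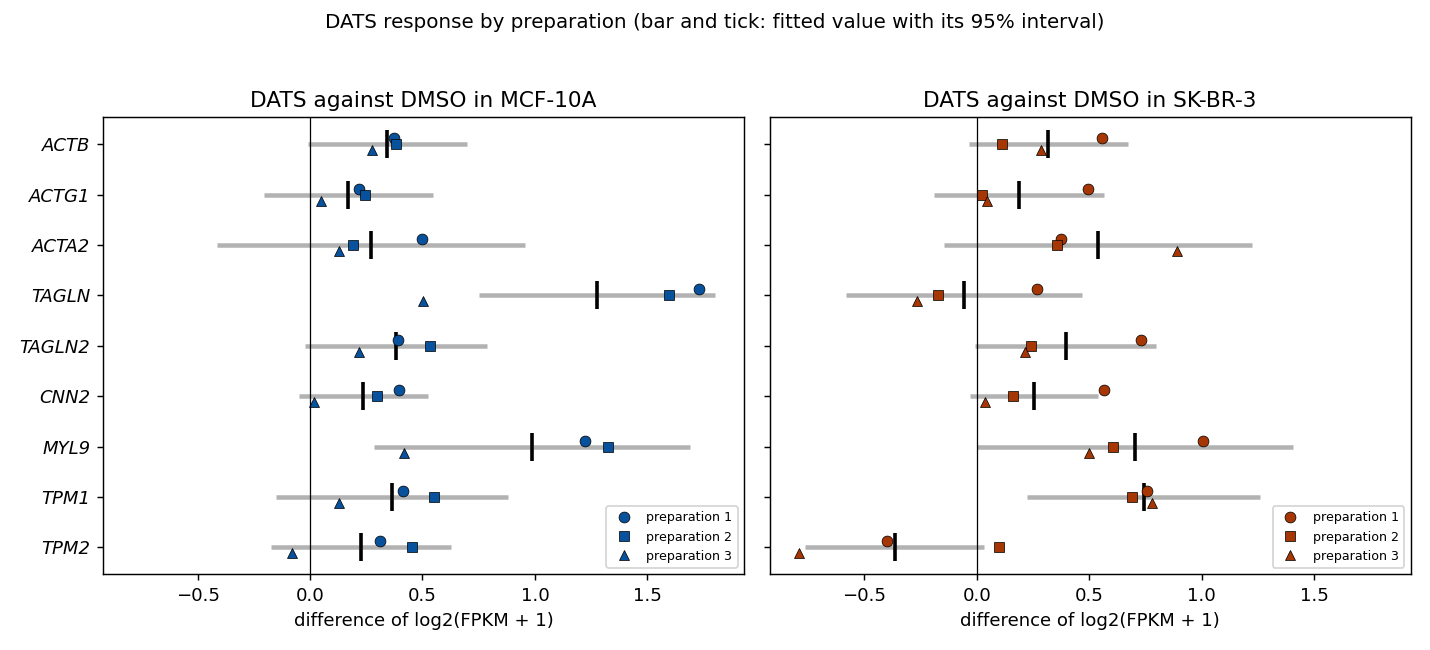
Difference of log2(FPKM + 1), DATS minus DMSO, for the 9 genes tested in MCF-10A (left) and SK-BR-3 (right), with 1 symbol per preparation, a tick at the fitted value and a bar for its 95% interval. The interval lies above 0 for TAGLN and MYL9 in MCF-10A and for TPM1 in SK-BR-3, and preparation 3 lies lowest for each gene in MCF-10A.

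Whether the lines responded differently was tested as the SK-BR-3 response minus the MCF-10A response. None of the 9 genes was called by limma, where 4.29% of all genes tested were (2.48% higher, 1.81% lower), while TAGLN and TPM2 had an unadjusted p under 0.05, and edgeR and DESeq2 called 1 gene each, TAGLN, where they called 1.66% and 3.62% of all genes lower. For TAGLN the difference was -1.33 ± 0.34 with adjusted p = 0.0506, and with the replicate block it was 0.0448, where 4.53% of all genes were called lower. Without MCF-10A DMSO library 3 it was -1.58 with adjusted p = 0.0142, and without SK-BR-3 DATS library 1 it was -1.54 with adjusted p = 0.0332. The alternatives ran from 0.00508 (DESeq2) to 0.130, so TAGLN lies at the threshold. For TPM2 the difference was -0.59 ± 0.26 with adjusted p = 0.217.

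For TPM1 the difference of the responses was 0.38, with a 95% interval from -0.35 to 1.11, and for MYL9 it was -0.29, from -1.28 to 0.71. ACTB, ACTG1, TAGLN2 and CNN2 differed by -0.03, 0.02, 0.01 and 0.02, with intervals that reached at most 0.59 from 0. ACTA2 differed by 0.27, from -0.70 to 1.24. A call in 1 line and none in the other is thus not shown to be a difference between the lines for TPM1.

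Between the lines, in DMSO, 8 of the 9 genes were called between SK-BR-3 and MCF-10A, 4 higher and 4 lower in SK-BR-3, where 36.6% of all genes tested were called higher and 35.5% lower (72.1% in either direction), so 8 of 9 is near the background. MYL9 was higher in SK-BR-3 by 2.55 ± 0.32 (adjusted p = 1.82e-05), TPM1 by 1.94 ± 0.24 (adjusted p = 1.38e-05) and ACTA2 by 1.55 ± 0.31 (adjusted p = 0.000808). ACTA2 reached 1 FPKM in 1 of the 3 MCF-10A libraries with DMSO and in every SK-BR-3 library.

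TPM2 was lower in SK-BR-3 by the widest margin of the 9, at -2.77 ± 0.18 (adjusted p = 5.92e-08), and TAGLN was lower at -1.55 ± 0.24 (adjusted p = 0.000104). CNN2 was lower at -1.0005 ± 0.13 (adjusted p = 2.49e-05) and ACTG1 at -0.98 ± 0.17 (adjusted p = 0.000274). The groups of these 7 genes did not overlap, 3 higher and 4 lower, beside 37.3% and 36.6% of all genes. TAGLN2 was called higher at 0.46 ± 0.18 with adjusted p = 0.0422, although MCF-10A library 3 overlapped with SK-BR-3; leaving out single libraries took its adjusted p from 0.00216, without MCF-10A DMSO library 3, to 0.159, without MCF-10A DMSO library 2. ACTB was not called, at -0.19 ± 0.16 with a 95% interval from -0.54 to 0.17.

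**Figure D3:**
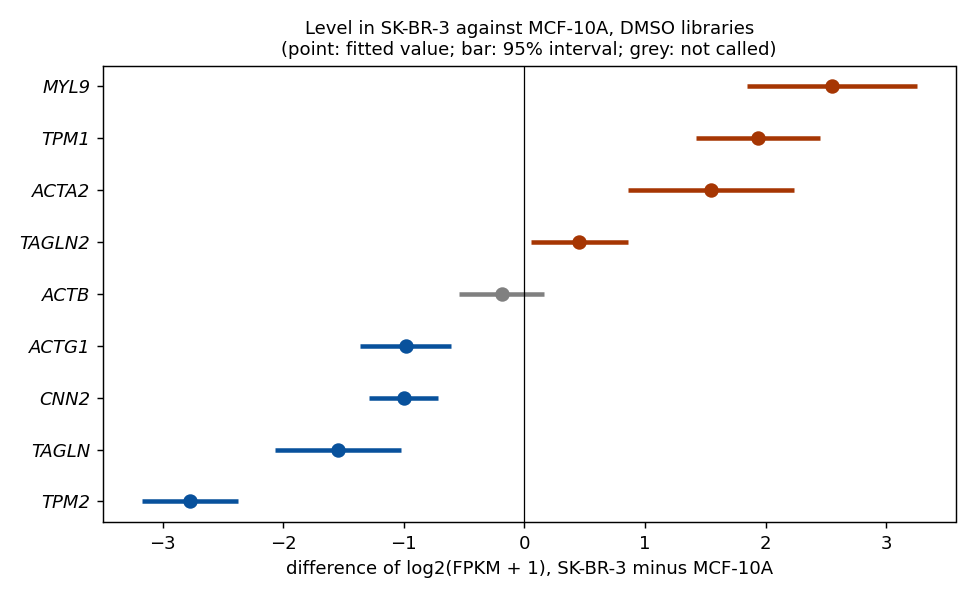
Difference of log2(FPKM + 1) between SK-BR-3 and MCF-10A in the DMSO libraries for the 9 genes tested, ordered by size, with points for the fitted values and bars for 95% intervals; grey marks a gene not called. Values run from -2.77 for TPM2 to 2.55 for MYL9, and the bar of ACTB crosses 0.

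Ratios of related genes were compared with and without DATS. The ratio of ACTB to ACTG1 in FPKM was 1.94 ± 0.0640 (SD, n = 3) in MCF-10A with DMSO and 2.19 ± 0.0179 with DATS, and 3.38 ± 0.128 and 3.70 ± 0.182 in SK-BR-3. In MCF-10A the DATS ratios of 2.21, 2.18 and 2.18 lay above the DMSO ratios of 1.98, 1.98 and 1.87. The exact two-sided permutation test gave p = 0.1, the smallest that 3 against 3 allows, and an adjusted p of 0.2 over the 4 ratio comparisons made.

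The ratio of TPM1 to TPM2 was 0.127 ± 0.0340 in MCF-10A with DMSO and 3.93 ± 0.427 in SK-BR-3, both understated by the merged length of TPM1. With DATS it was 0.144 ± 0.0426 in MCF-10A, where the groups overlapped. In SK-BR-3 it was 8.17, 6.61 and 12.9 with DATS, above all 3 DMSO ratios of 3.51, 4.36 and 3.93. That comparison too had p = 0.1 by the exact permutation test and an adjusted p of 0.2.

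The wider SRF pathway was described from lists of genes outside the 10, chosen with earlier results of these data known. Beside the counts by edgeR and DESeq2 below, edgeR called 3.87% of all genes higher and 2.09% lower in MCF-10A, against 8.68% and 8.42% for SK-BR-3. DESeq2 called 6.87% higher and 4.17% lower in MCF-10A, against 13.1% and 8.91% for SK-BR-3. Leaving out a library also moved the count over all genes, from 550 higher in MCF-10A to 47 without DATS library 2, and from 1485 in SK-BR-3 to 1055 without DATS library 1, 767 without DATS library 3 and 853 without DMSO library 2. SRF itself was not called, at 12.4 ± 0.630 and 12.7 ± 1.2 FPKM in MCF-10A and 17.8 ± 1.85 and 16.7 ± 4.52 FPKM in SK-BR-3 with DMSO and DATS (SD, n = 3). Of the 6 tested genes for SRF and its cofactors, 0 were called in MCF-10A by limma (1 at an unadjusted p under 0.05) and by edgeR, and 1, ELK3, by DESeq2, where limma called 4.17% of all genes higher. In SK-BR-3, where it called 11.3% higher, 2 rose: MRTFA, the actin-regulated cofactor, by 0.51 ± 0.13 (adjusted p = 0.0218) and ELK3, an ETS-family partner, by 0.76 ± 0.18 (adjusted p = 0.0147). Without SK-BR-3 DMSO library 2 neither was called. In MCF-10A ELK3 differed by 0.63 ± 0.18 with adjusted p = 0.0597, and 0.00687 with the replicate block.

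Of 27 further actin-type SRF targets tested, 2 rose in MCF-10A, where 4.17% of all genes did, and 10 in SK-BR-3, where 11.3% did. Among them 0 fell by limma (0 also at an unadjusted p under 0.05), edgeR or DESeq2, with medians of 0.29 and 0.44 beside 0.02 and 0.03 for all genes. CNN3, an acidic calponin named after its value was seen, rose in MCF-10A from 13.9 ± 1.74 to 19.6 ± 0.861 FPKM (SD, n = 3), a call lost without DMSO library 1 or 2 or DATS library 2. In SK-BR-3 the widest differences were in FBLIM1, an adaptor at cell-matrix contacts, at 0.77 ± 0.19 (adjusted p = 0.0189), LIMA1, which stabilises actin filaments, at 0.71 ± 0.16 (0.0119), and ACTN1, alpha-actinin, at 0.68 ± 0.20 (0.0361). With single libraries left out LIMA1 was called in 12 of 12 fits, while FBLIM1 lost its call in 4 and ACTN1 in 6. With the replicate block 13 and 19 of the 27 were called higher, beside 10.7% and 17.1% of all genes. Without DMSO library 3 the count in MCF-10A was 11, beside 9.87% of all genes, and without SK-BR-3 DATS library 1 the count in SK-BR-3 was 2.

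Of 7 immediate early SRF targets tested, IER3 rose in MCF-10A by 0.98 ± 0.24 (adjusted p = 0.0373), where 4.17% of all genes rose, and 0 rose in SK-BR-3 by limma, edgeR or DESeq2 or at an unadjusted p under 0.05. The call of IER3 was lost when any MCF-10A library other than DMSO library 3 was left out (adjusted p up to 0.154). In SK-BR-3 the median was -0.44, and 0 fell by limma (1 at an unadjusted p under 0.05) or edgeR and 1 by DESeq2. EGR1, a zinc finger transcription factor, measured 94.5 ± 37.7 FPKM with DMSO and 44.0 ± 15.6 FPKM with DATS in MCF-10A. In SK-BR-3 it measured 67.3 ± 47.8 FPKM and 36.9 ± 24.5 FPKM. It was not called (adjusted p = 0.349 and 0.458), and with the replicate block it was called lower in both lines (adjusted p = 0.00687 and 0.00269). With that block 2 and 3 of the 7 were called lower, beside 5.21% and 10.3% of all genes.

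Among 20 tested actin assembly factors 2 rose and 1 fell in MCF-10A, where 4.17% of all genes rose and 2.11% fell, so the counts are near the background. In SK-BR-3 7 rose, beside 11.3% of all genes, and 0 fell by limma (0 also at an unadjusted p under 0.05), edgeR or DESeq2, beside 6.87%. With the replicate block 10 rose and 1 fell in MCF-10A, and 11 rose and 0 fell in SK-BR-3, beside 10.7% and 5.21%, and 17.1% and 10.3%, of all genes. GSN, gelsolin, which severs and caps filaments, rose in MCF-10A by 0.92 ± 0.15 (adjusted p = 0.00929), and DSTN, a filament-severing factor, by 0.39 ± 0.10 (adjusted p = 0.0431). DIAPH3, a formin that nucleates filaments, fell there by 0.38 on the log2 scale (SE 0.09, adjusted p = 0.0312). With single libraries left out GSN lost its call in 3 of 12 fits (adjusted p up to 0.0571), DSTN in 9 (up to 0.187) and DIAPH3 in 5 (up to 0.141), and with the replicate block all were called. TMSB4X, the thymosin that binds free actin, rose in SK-BR-3 by 0.84 ± 0.17 (adjusted p = 0.00857), as did PFN2, a profilin, by 0.78 ± 0.10 and CFL2, a cofilin, by 0.69 ± 0.11. In MCF-10A TMSB4X differed by 0.62 ± 0.17, not called by limma (adjusted p = 0.0546) but called higher by edgeR and DESeq2. DSTN was called higher in SK-BR-3 as well by limma, by 0.36 ± 0.10 (adjusted p = 0.0317), though not by edgeR. Without MCF-10A DATS library 2 the count that rose in MCF-10A was 0 and without DMSO library 3 it was 8, and without SK-BR-3 DATS library 3 the count in SK-BR-3 was 4. DSTN and DIAPH3 were named after their values were seen.

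Of the muscle actins and late smooth muscle genes 4 of 10 were tested, and in SK-BR-3, where 11.3% of all genes rose, the 2 genes called by limma were the skeletal actin ACTA1 and the enteric smooth muscle actin ACTG2. There edgeR called the same 2, and DESeq2 called 1, ACTG2. ACTA1 went from 18.7 ± 5.57 to 45.2 ± 17.2 FPKM (1.196 ± 0.28, adjusted p = 0.0159) and ACTG2 from 4.57 ± 1.45 to 10.6 ± 2.64 FPKM (1.07 ± 0.20, adjusted p = 0.00533). In MCF-10A neither was above 1 FPKM on average and 0 of the 4 were called by limma (2 at an unadjusted p under 0.05), 1 by edgeR (ACTG2) and 2 by DESeq2 (ACTG2 and SMTN). With the replicate block 1 was called there, ACTG2 (adjusted p = 0.0102), and without DMSO library 3 and with no block 1 was, SMTN, smoothelin, named after its call was seen. Without SK-BR-3 DATS library 1 the count in SK-BR-3 was 1, and ACTA1 lost its call in 3 of the 12 fits with a library left out. The summed level of this list ran from 10.6 to 21.3 FPKM with DMSO and 22.0 to 25.3 FPKM with DATS in MCF-10A, and from 23.0 to 36.8 and 42.9 to 79.5 FPKM in SK-BR-3. SMTN held most of the sum in MCF-10A, at 14.8 and 21.6 FPKM on average, and was not called by limma (adjusted p = 0.0916). ACTA1 held the largest part in SK-BR-3. The genes of this list that were not tested stayed under 1 FPKM on average in both lines.

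Of the 8 fibroblast markers COL1A1, a chain of type I collagen, held most of the signal, with means of 6.03 FPKM with DMSO and 6.27 FPKM with DATS in MCF-10A, against 1.78 and 1.92 FPKM for SK-BR-3. The 8 genes summed to 5.54 to 9.63 FPKM in MCF-10A and 1.60 to 2.45 FPKM in SK-BR-3 with DMSO, and 6.92 to 9.16 and 1.70 to 2.30 FPKM with DATS. Neither of the 2 fibroblast genes tested was called in either line by limma, edgeR or DESeq2, with 0 at an unadjusted p under 0.05. COL3A1, PDGFRA and THY1 were at 0 in all MCF-10A libraries with DMSO, and DCN and LUM at 0 in all SK-BR-3 libraries. Of the 6 endothelial and leukocyte markers 2 were tested. CDH5, a cadherin, was the 1 that rose by limma, in SK-BR-3 from 11.8 ± 2.88 to 25.3 ± 4.42 FPKM (1.04 ± 0.15, adjusted p = 0.00139), where 11.3% of all genes rose. In MCF-10A 0 were called by limma or edgeR (0 at an unadjusted p under 0.05) and 1 was called higher by DESeq2. That was CDH5 itself, which was at 0 FPKM with DMSO and 0.0325 FPKM on average with DATS. In SK-BR-3 CDH5 made up most of that list's sum of 10.0 to 15.3 FPKM with DMSO and 21.6 to 30.2 FPKM with DATS. In MCF-10A, where CDH5 was at or near 0, the list summed to 4.07 to 4.94 FPKM with DMSO and 4.48 to 6.94 FPKM with DATS.

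**Figure D4:**
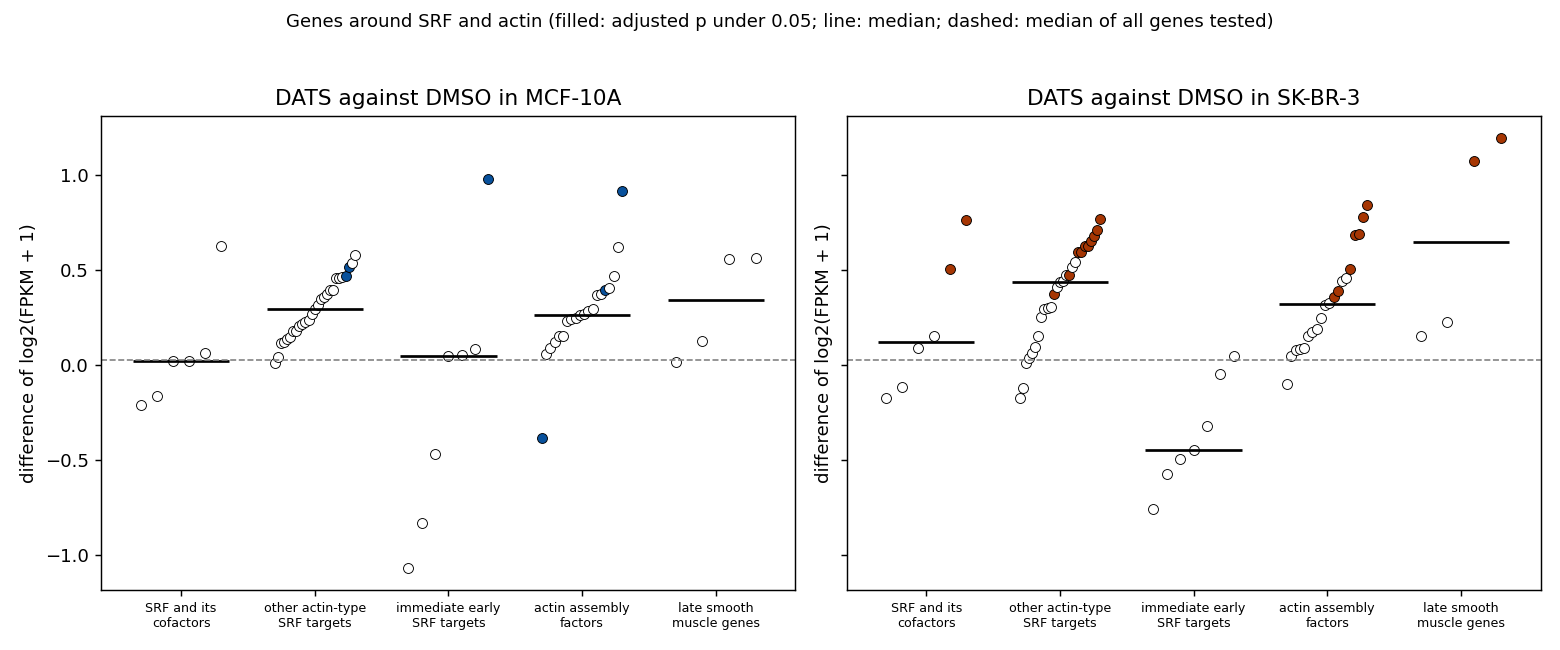
Difference of log2(FPKM + 1), DATS minus DMSO, for each tested gene of 5 lists around SRF and actin in MCF-10A (left) and SK-BR-3 (right); filled points were called, lines are list medians and the dashed line is the median of all genes tested. The median of the 27 further actin-type targets is 0.29 in MCF-10A and 0.44 in SK-BR-3, and that of the 7 immediate early targets is 0.05 and -0.44.

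To place the patterns, 5581 genes with at least 5 FPKM on average in each line were ranked by the root mean square difference of their log2 values from those of a given gene over the 12 libraries, after each line's mean was removed. Closest to ACTB was CAPZB, which encodes a subunit of the actin capping protein, at 0.0480, followed by CHPF, VAMP3, NEU1 and ATP6V0E1. TAGLN2 ranked 18 and ACTG1 43. Closest to TAGLN were ELF3, at 0.213, then PPIAP29, TNFAIP3, IKBKE and SOX4, while MYL9 ranked 109 and ACTB 627. These ranks are a description over libraries that share the same preparations.

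Overlapping genes limit some of the counts, since the strand setting of the counting is not given in the sources used here. ACTA2 shares 380 exon bases with FAS, a death receptor gene on the opposite strand, which measured 10.2 ± 0.688 FPKM in MCF-10A with DMSO and 14.3 ± 0.470 with DATS, and 0.0348 ± 0.0177 and 0.0674 ± 0.0328 in SK-BR-3. In MCF-10A, where ACTA2 held 49 to 86 reads a library, its reads and those of FAS cannot be told apart in the shared bases. In SK-BR-3 FAS was near 0 while ACTA2 measured 2.93 to 12.9 FPKM. TAGLN shares 446 exon bases with PCSK7, which stayed at or under 2.08 FPKM in the 12 libraries, and TPM1 shares 2070 with TPM1-AS, at or under 0.184 FPKM.

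The authors' deposited table for MCF-10A, which lists genes at an unadjusted p under 0.05, holds 1 of the 10 genes, TAGLN, at a log2 change of 1.26 and an adjusted p of 1.74e-07. The authors' deposited table for SK-BR-3 holds 4: TPM1 at 0.72 (adjusted p = 5.22e-08), MYL9 at 0.72 (0.00687), TAGLN2 at 0.37 (0.0403) and ACTB at 0.28 (0.0918).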

How the data were processed

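RNA was sequenced in 12 libraries, grouped by the line and treatment in their labels. Reads were aligned with STAR 2.6.1d on GRCh38 (hg38) and compared with DESeq2, per the submitters' processing notes. The FPKM values for all genes are the authors'. Per the file headers, the authors' tables of each line hold whole read counts, a log2 fold change and p-values for genes at an unadjusted p under 0.05. The FPKM divisor is an effective library size that was 0.886 to 1.07 times the read total. FPKM times GENCODE 29 exon length and that size gave whole reads for 704820 of 704820 values (tolerance 1e-06 read), equal to the deposited count in 45252 of 45252 cases. Depth was 15295046 to 18407213 reads in genes per library; intervals and limits from reads cover counting error only.

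Genes at 1 FPKM or more in 3 libraries were fitted with limma 3.58.1 in R 4.3.3 on log2(FPKM + 1), 1 mean per group, trended empirical Bayes, Benjamini-Hochberg over 13194 genes. The scale understates changes of low genes. edgeR 4.0.16 and DESeq2 1.42.0 on recovered reads were alternatives, with another pseudocount (0.1), no filter, quantile normalization, plain read totals, each line alone, a replicate block and each library left out. The labels call the preparations independent and do not tie a number to a day, but same-numbered libraries deviated together (correlations 0.21, 0.19 and 0.33 in MCF-10A, 0.39, 0.24 and 0.25 in SK-BR-3). The numbers were taken to pair libraries only in the differences by preparation and in the replicate block. The main fit and the ratio tests did not pair them.

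The genes and lists were chosen with earlier results of these data known. All 10 genes are named; of each list, up to 3 tested genes with the largest absolute change per DATS comparison could be named, and others are said to be named after their values were seen. A list and some genes are not reported here. Start sequences are from RefSeq (GRCh38.p14), gene positions from GENCODE 29.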

Additional observations from a re-analysis of the deposited data

Results flagged for a closer look

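The DATS response differed between the lines, by the limma test of the difference itself, for 2 of the 20 actin assembly factors tested. Both were called higher, as SK-BR-3 minus MCF-10A, where 2.48% of all genes tested were called higher and 1.81% lower. They are described here because of that call. DIAPH3 went from 8.58 ± 0.827 to 6.35 ± 0.416 FPKM in MCF-10A and from 4.69 ± 0.241 to 8.16 ± 0.827 FPKM in SK-BR-3 (SD, n = 3), a difference of the responses of 1.06 ± 0.13 (SE) with adjusted p = 0.00371. PFN2 went from 33.8 ± 1.02 to 35.4 ± 3.46 FPKM in MCF-10A and from 6.82 ± 0.372 to 12.5 ± 1.59 FPKM in SK-BR-3, a difference of 0.72 ± 0.14 with adjusted p = 0.020. With single libraries left out the DIAPH3 difference was called in 12 of 12 fits, while that of PFN2 lost its call in 6 of 12 (adjusted p up to 0.0572).

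Among the marker lists the difference of the responses was called by limma for 2 of 6 basal markers, higher, and 2 of 6 luminal markers with ERBB2, lower. It was also called, higher, for 1 of the 2 endothelial and leukocyte markers tested, beside 4.29% of all genes in either direction. Only the markers already named above are given here. KRT5 went from 979 ± 103 to 688 ± 21.3 FPKM in MCF-10A and from 0.312 ± 0.176 to 0.780 ± 0.261 FPKM in SK-BR-3, a difference of 0.94 ± 0.18 with adjusted p = 0.0191, lost in 2 of 12 fits with a library left out. ERBB2 went from 8.26 ± 0.345 to 8.62 ± 0.166 FPKM in MCF-10A and from 493 ± 23.6 to 390 ± 13.5 FPKM in SK-BR-3, a difference of -0.39 ± 0.0932 with adjusted p = 0.0406, lost in 9 of 12 such fits. CDH5 was at or near 0 in MCF-10A and went from 11.8 to 25.3 FPKM in SK-BR-3, a difference of 1.00 ± 0.21 with adjusted p = 0.0276, lost in 7 of 12 such fits.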

How the results depend on the processing

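Each result was recomputed with a pseudocount of 0.1, without the filter, with quantile normalization, plain read totals, a replicate block, edgeR, DESeq2, each line alone and each library left out. The block was not run between the lines, in which the preparations are nested. With the replicate block 3 of the 9 genes were called in MCF-10A and 4 in SK-BR-3, and 1 for the difference of the responses. In SK-BR-3 the count was 0 with the pseudocount of 0.1, without the filter, with quantile normalization, plain read totals and edgeR. For the difference it was 1 with quantile normalization, plain read totals, edgeR and DESeq2. With single libraries left out the counts ran from 0 to 6 in MCF-10A, 0 to 2 in SK-BR-3 and 0 to 1 for the difference, and between the lines 7 to 8 genes were called in all alternatives run. The causes were not tested.

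The difference of the responses was 0.15 for ACTB with quantile normalization, -0.0010 for TAGLN2 with plain read totals, and with edgeR -0.0237 for ACTG1, -0.0168 for TAGLN2 and -0.0224 for CNN2. With libraries left out it ran from -0.19 to 0.11 for ACTB, -0.18 to 0.15 for ACTG1, -0.0923 to 0.64 for ACTA2, -0.20 to 0.15 for TAGLN2 and -0.13 to 0.12 for CNN2, and the SK-BR-3 response of TAGLN from -0.27 to 0.13. For CDH5, with 0 reads in MCF-10A with DMSO, it was -3.78 with edgeR and -3.24 with DESeq2, neither called. Of 1267 recomputed values of named genes, 1065 kept direction and call, 129 lost the call, 42 gained it and 31 changed sign. Over all genes 829 were called in MCF-10A, 2391 in SK-BR-3 and 566 for the difference, against 2100, 3621 and 1296 with the block. DESeq2 called 1456 in MCF-10A and 1094 for the difference, SK-BR-3 alone gave 1195, quantile normalization 1249 in MCF-10A, and no filter 418 in MCF-10A and 250 for the difference. With libraries left out the counts ran from 75 (MCF-10A DATS library 2) to 1937 (MCF-10A DMSO library 3) in MCF-10A, 1226 to 2666 in SK-BR-3 and 124 to 1036 for the difference. Low read counts limit ACTA2 in MCF-10A and CNN1 in both lines.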
